A study of Mus musculus with 11 samples.

Results

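Hmgcs1, Pmvk, Mvd, Idi1, Fdps and Fdft1 encode enzymes of the mevalonate pathway between acetyl-CoA and squalene, and they are described here in tumor-derived mouse mammary cell lines with and without Cpt1a. These 6 genes were the steps up to squalene found by gene name in a deposited table of 4461 genes. The table holds only genes that the authors called different between the genotypes, so the difference between genotypes chose the genes and is given below as a description, without a test. Of the 6, all passed the filter on low counts, as did 4268 genes of the table by line.

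RNA-Seq was performed on cells grown from mammary tumors of female mice, taken 8 weeks after the tumors could be felt. In these animals a single MMTV-driven transcript, NIC, carries an activated ErbB2 oncogene together with Cre recombinase in the mammary epithelium, and both genotypes express it. In NIC/Cpt1a L/L lines (KO_4258, KO_1922, KO_2768, KO_1925) the same Cre deletes conditional alleles of Cpt1a, which moves long-chain fatty acids into mitochondria for oxidation, and NIC/Cpt1a +/+ lines (WT_8905, WT_5257) are controls with wild-type alleles. The background is FVB/N, no treatment was given, and all cells grew in the same serum-containing medium. Each line came from a tumor of its own and had 2 libraries, except KO_2768 with 1. Groups follow the genotype field of the labels, since the wording of the sample titles states the allele status the other way round.

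The mevalonate pathway builds isoprenoids from acetyl-CoA. Its products include farnesyl diphosphate, from which cells make squalene and then cholesterol, and which also supplies dolichol, ubiquinone side chains and the lipid anchors of small GTPases. Transcription of the pathway is known to be driven by SREBP-2, a membrane-bound factor that leaves the endoplasmic reticulum when sterols are low. Proliferating cells, tumor cells included, need its products for membranes and protein prenylation. Mevalonate kinase (Mvk), which acts just before Pmvk, was not analysed here.

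Promoter sequence is shown for Hmgcs1 and Mvd, because relative to controls Mvd stood highest of the 6 and Hmgcs1 low in the line KO_4258. The sequences are the 250 bases before the start site, from RefSeq on GRCm38.p6, 5′ to 3′ in the direction of the gene. Capitals mark 3 motifs searched on both strands: TCACNCCAC, a form of the sterol regulatory element, CCAAT, the box bound by NF-Y, and GGGCGG, the GC box. No matches overlapped one another in these windows.
Hmgcs1, chr13:119690101-119690350, + strand: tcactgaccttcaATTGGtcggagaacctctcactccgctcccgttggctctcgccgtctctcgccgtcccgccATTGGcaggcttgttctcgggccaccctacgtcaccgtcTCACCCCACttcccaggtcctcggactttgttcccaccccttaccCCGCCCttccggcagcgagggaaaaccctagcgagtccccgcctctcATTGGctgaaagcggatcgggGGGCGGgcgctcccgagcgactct
Mvd, chr8:122443423-122443672, - strand: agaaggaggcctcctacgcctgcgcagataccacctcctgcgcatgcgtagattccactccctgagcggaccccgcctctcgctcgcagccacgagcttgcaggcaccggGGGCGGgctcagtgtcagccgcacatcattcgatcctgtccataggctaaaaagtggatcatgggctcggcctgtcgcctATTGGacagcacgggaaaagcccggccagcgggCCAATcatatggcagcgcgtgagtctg

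The Hmgcs1 window held 1 sterol regulatory element, beginning 137 bases before the start site, with 3 CCAAT boxes and 2 GC boxes. The Mvd window held 2 CCAAT boxes, 60 and 27 bases before the start site, and 1 GC box, and had no match to TCACNCCAC. In the window of Idi1, CCAAT boxes began 45 and 14 bases before the RefSeq start site and a GC box 69 bases before it. Like that of Mvd, the Idi1 window had no match to TCACNCCAC, although Idi1 was the lowest of the 6 in KO_4258 relative to controls. These boxes of Idi1 lie within the first exon of a longer transcript in GENCODE M21, so its sequence is not shown. Pmvk had 2 windows, of which 1 held a single CCAAT box and the other no match. Of 32851 mouse windows of the same length, 1.05% held TCACNCCAC, 33.8% CCAAT and 32.7% GGGCGG. Windows were matched for 4 of the 6 genes, all but Fdps and Fdft1. A match describes the letters only.

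Depth was 18247312 to 25386785 reads in NIC/Cpt1a L/L libraries and 15199378 to 17372643 in control libraries. Levels are given as CPM, the reads of a gene per 1000000 reads of its library after TMM scaling of the lines, and duplicate libraries of a line differed by 1.00 to 1.15 times in the 6 genes (median 1.05, 30 pairs of libraries). Cpt1a and Erbb2 were not analysed here, so the deletion and the oncogene were not checked in these data. Of 9 markers of luminal mammary epithelium only Elf3 could be read, at 11.0 to 73.4 CPM in NIC/Cpt1a L/L lines and 11.6 to 11.9 CPM in controls. Markers of other cell types could be read only where the genotype contrast had listed them. Those listed differed between the genotypes and, for some genes, stood apart in single lines. Summed over the 4 of 9 fibroblast markers in the table, levels were 5.53 to 1393 CPM in NIC/Cpt1a L/L lines and 0 to 0.0937 CPM in controls, and 2 of 7 basal markers summed to 1.22 to 11.6 CPM and 0 to 0.125 CPM. The adipocyte gene Fabp4, 1 of 4 markers, was at 0.437 to 2.13 CPM and 0 to 0.125 CPM. These 2 sums and Fabp4 were higher in every NIC/Cpt1a L/L line than in both controls, but single markers were not. In KO_4258 Col1a2, Pdgfrb and Dcn were at 0, so its fibroblast sum was Bgn alone, at 5.93 CPM. Acta2, a basal marker, was at 0.0460 CPM in KO_4258, below 0.0937 CPM in WT_8905, and Krt17 was at 1.17 CPM in KO_4258. Dcn, a fibroblast proteoglycan, was at 1368 CPM in KO_2768 and at most 0.887 CPM elsewhere, and 0 in KO_4258 and both controls. Csf1r, the macrophage growth factor receptor and the 1 of 6 leukocyte markers in the table, was at 312 CPM in KO_4258. It was at 17.2 CPM in KO_1925, 4.03 CPM in KO_1922 and 0.0775 CPM in KO_2768, against 0.0316 CPM in WT_5257 and 0.437 CPM in WT_8905. Mlana, 1 of 4 melanocyte markers, was at 246 CPM in WT_5257 and 36.6 CPM in WT_8905, against at most 0.364 CPM in NIC/Cpt1a L/L lines.

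The first question was how far each enzyme's transcript lay from the controls in each Cpt1a-deficient line. All 6 transcripts were lower on average in NIC/Cpt1a L/L lines, with log2 fold changes of -1.73 to -0.70 and a median of -1.23. Negative values made up 41.4% of all tested genes, whose median was 0.49. In 5 of the 6 genes every NIC/Cpt1a L/L line lay below both controls, as it did in 38.2% of tested genes. Since the genotype contrast chose the genes, nothing is read from either count. Without KO_2768 and KO_4258, the lines in which Dcn and Csf1r stood apart, the median was -1.16 and the count 5 of 6. Leaving these lines out does not remove the difference in markers, since Krt17, a basal keratin, was at 10.6 CPM in KO_1922 and 2.90 CPM in KO_1925, against at most 0.0312 CPM in controls. The genotype contrast also chose the markers that could be read, so their difference is a description too. Summed fibroblast and basal markers, Fabp4 and Mlana differed along with genotype, so their part and that of Cpt1a cannot be told apart in these lines. In bulk RNA, fewer cells of one type and less RNA per cell cannot be told apart either.

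Hmgcs1 (ENSMUSG00000093930, mm10 chr13:119690462-119708086, + strand) encodes cytosolic HMG-CoA synthase, which joins acetoacetyl-CoA and acetyl-CoA and opens the pathway. Its level was 80.7 and 85.3 CPM in the libraries of KO_1922, 106 and 109.7 in KO_1925, 103 in KO_2768, and 43.6 and 42.5 in KO_4258. Control libraries held 198 and 183 CPM in WT_5257 and 203 and 199 in WT_8905. The groups did not overlap, and KO_4258 was the low line, at 22.1% of the control mean against 42.4% to 55.2% for the other 3. By line, the level was 84.2 ± 29.4 CPM (SD, n = 4) in NIC/Cpt1a L/L and 195 ± 8.05 CPM (SD, n = 2) in control lines, a log2 fold change of -1.21 (SE 0.36).

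Pmvk (ENSMUSG00000027952, mm10 chr3:89459118-89469013, + strand), phosphomevalonate kinase, adds a phosphate to mevalonate 5-phosphate. Its libraries held 16.2 and 14.6 CPM in KO_1922, 27.8 and 25.5 in KO_1925, 25.5 in KO_2768, and 29.4 and 29.2 in KO_4258, against 76.9 and 81.4 in WT_5257 and 84.2 and 78.2 in WT_8905. Here KO_1922 was the low line and the other 3 lay close together. Pmvk had the lowest fold change of the 6, -1.73 on the log2 scale (SE 0.28), from 24.2 ± 6.05 CPM (SD, n = 4) against 80.3 ± 1.38 CPM (SD, n = 2). Even the highest NIC/Cpt1a L/L line held 36.5% of the control mean.

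Mvd (ENSMUSG00000006517, mm10 chr8:122433596-122443422, - strand), mevalonate diphosphate decarboxylase, makes isopentenyl diphosphate, the building block of all isoprenoids. Its libraries held 20.2 and 18.4 CPM in KO_1922, 39.1 and 40.1 in KO_1925, 19.5 in KO_2768, and 48.9 and 50.7 in KO_4258, against 82.2 and 73.6 in WT_5257 and 60.3 and 57.7 in WT_8905. KO_4258, the low line for Hmgcs1, was the highest NIC/Cpt1a L/L line for Mvd, at 72.8% of the control mean. By line, Mvd was at 32.0 ± 15.2 CPM (SD, n = 4) and 68.3 ± 13.1 CPM (SD, n = 2), a log2 fold change of -1.09 (SE 0.45).

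Idi1 (ENSMUSG00000058258, mm10 chr13:8885501-8892451, + strand), isopentenyl diphosphate isomerase, converts isopentenyl diphosphate into its reactive isomer dimethylallyl diphosphate. Its libraries held 37.2 and 40.1 CPM in KO_1922, 64.4 and 67.6 in KO_1925, 32.9 in KO_2768, and 13.8 and 12.0 in KO_4258, against 124 and 121 in WT_5257 and 88.1 and 85.3 in WT_8905. KO_4258 was again the low line, at 12.5% of the control mean, and KO_1925 the high one, at 63.2%. The log2 fold change was -1.47 with an SE of 0.57, the widest of the 6, from 37.6 ± 21.8 CPM (SD, n = 4) against 104 ± 24.9 CPM (SD, n = 2).

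Fdps (ENSMUSG00000059743, mm10 chr3:89093592-89101967, - strand), farnesyl diphosphate synthase, condenses these isomers into farnesyl diphosphate. Its libraries held 138 and 134 CPM in KO_1922, 201 and 202 in KO_1925, 128 in KO_2768, and 163 and 177 in KO_4258, against 436 and 428 in WT_5257 and 323 and 324 in WT_8905. The 4 NIC/Cpt1a L/L lines lay at 33.9% to 53.3% of the control mean. By line, Fdps was at 159 ± 33.6 CPM (SD, n = 4) and 378 ± 76.7 CPM (SD, n = 2), a log2 fold change of -1.25 (SE 0.24).

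Fdft1 (ENSMUSG00000021273, mm10 chr14:63145153-63177793, - strand), squalene synthase, takes farnesyl diphosphate into the sterol branch. Its libraries held 66.6 and 66.3 CPM in KO_1922, 89.7 and 95.9 in KO_1925, 54.9 in KO_2768, and 72.9 and 71.1 in KO_4258, against 89.3 and 81.6 in WT_5257 and 151 and 143 in WT_8905. This was the one gene whose groups overlapped, with KO_1925 at 92.8 CPM above WT_5257 at 85.2 CPM. The log2 fold change of -0.70 (SE 0.30) was the nearest to 0 of the 6, from 71.5 ± 15.8 CPM (SD, n = 4) against 116 ± 43.9 CPM (SD, n = 2). It was -1.14 without WT_5257 and -0.24 without WT_8905.

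**Figure D1:**
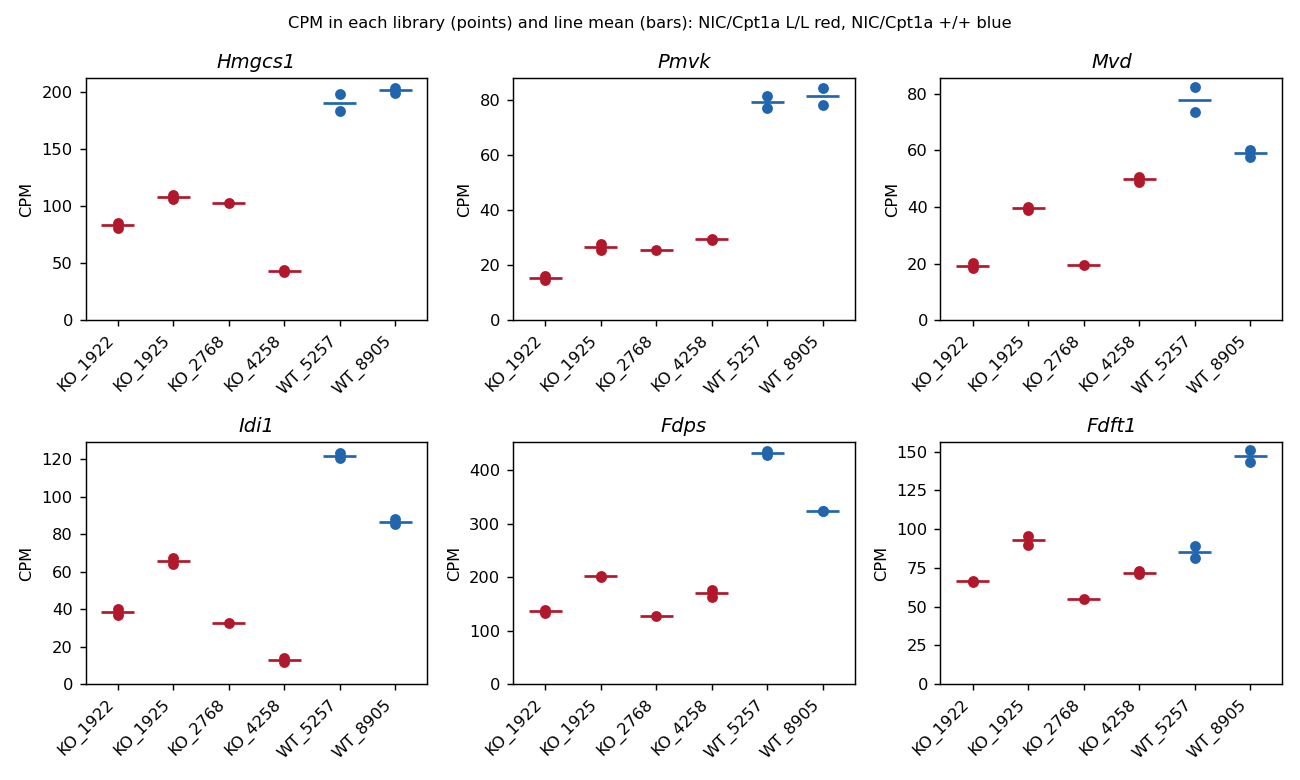
CPM (vertical axis, from 0) of the 6 genes in each library (points), by cell line, with the mean of a line's libraries as a bar. Control lines (blue) lie above all NIC/Cpt1a L/L lines (red) in 5 panels, while in Fdft1 the line KO_1925 lies above WT_5257.

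Between genes, levels can be compared only per length, for which the FPKM values of the authors were used. Fdps was the most abundant of the 6 in both genotypes, at 130 ± 27.0 FPKM (SD, n = 4) in NIC/Cpt1a L/L and 296 ± 60.9 FPKM (SD, n = 2) in control lines. In control lines Pmvk followed at 65.2 ± 1.02 FPKM, then Hmgcs1 at 58.7 ± 2.15, Fdft1 at 39.5 ± 14.7, Mvd at 37.7 ± 7.46 and Idi1 at 33.5 ± 8.10 (SD, n = 2). The SDs of the last 3 overlapped. Within lines, Mvd lay above Idi1 in both, at 43.0 against 39.2 FPKM in WT_5257 and 32.5 against 27.8 in WT_8905. Fdft1 lay below both of these genes in WT_5257, at 29.05 FPKM, and above both in WT_8905, at 49.9. In NIC/Cpt1a L/L lines Hmgcs1 (26.6 ± 9.61 FPKM), Fdft1 (25.4 ± 5.72), Pmvk (20.5 ± 4.69), Mvd (18.3 ± 8.22) and Idi1 (12.7 ± 7.51; SD, n = 4) overlapped one with the next. By mean FPKM, Pmvk thus stood at rank 2 in control lines and at rank 4 in NIC/Cpt1a L/L lines. The shift restates the genotype difference that chose the genes, and rank 4 rests on levels that overlap.

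The second question was whether Cpt1a-deficient lines differed from each other in this pathway, a comparison that did not choose the genes. All 6 transcripts differed among the 4 NIC/Cpt1a L/L lines by edgeR's quasi-likelihood test, with Benjamini-Hochberg adjusted p from 1.29e-29 for Idi1 to 1.51e-12 for Pmvk. Such a difference was common, with 88.6% of 4377 tested genes past the threshold of 0.05, since the test sets lines against the spread between duplicate libraries only. The highest line exceeded the lowest by at least 2-fold in 3 of the 6 genes and in 51.5% of all genes. These 3 were Idi1 (5.07-fold), Mvd (2.57-fold) and Hmgcs1 (2.50-fold), and the others were Pmvk (1.89-fold), Fdft1 (1.69-fold) and Fdps (1.57-fold).

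The lines were not ordered alike across the 6 steps. KO_1925 was the highest NIC/Cpt1a L/L line for Hmgcs1, Idi1, Fdps and Fdft1, and KO_4258 for Pmvk and Mvd. KO_4258 was the lowest for Hmgcs1 and Idi1, KO_2768 for Fdps and Fdft1, and KO_1922 for Pmvk and, with KO_2768 beside it, for Mvd. Mvd differed by 0.00 on the log2 scale between KO_1922 and KO_2768 (SE 0.11, adjusted p = 0.979, edgeR). Some other places were not separated by edgeR's test either. Pmvk in KO_4258 did not pass against KO_1925 (adjusted p = 0.104) or KO_2768 (0.0528). Hmgcs1 in KO_1925 did not pass against KO_2768 (adjusted p = 0.417), nor did Fdps in KO_2768 against KO_1922 (0.172).

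**Figure D2:**
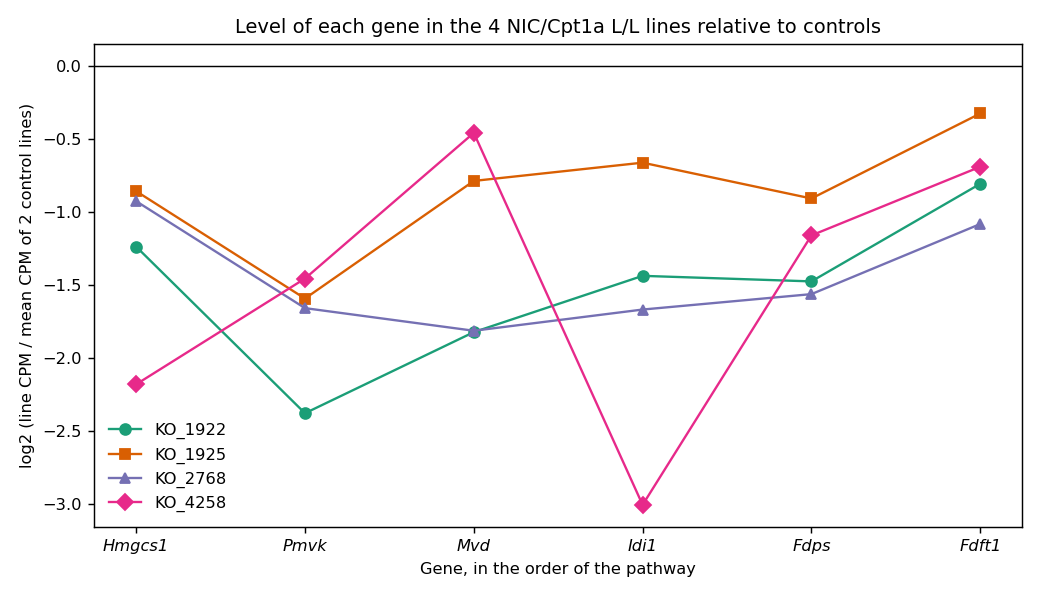
The log2 ratio of each NIC/Cpt1a L/L line's CPM to the mean of the 2 control lines (vertical axis) for the 6 genes in pathway order, 1 line of points per cell line. KO_4258 swings between -0.46 at Mvd and -3.00 at Idi1, while KO_1922 lies below KO_1925 at every gene.

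In KO_4258 neighbouring steps of the pathway moved apart. Compared with KO_1925, KO_4258 was lower in Idi1 by 2.33 on the log2 scale (SE 0.08, adjusted p = 9.17e-31, edgeR) and lower in Hmgcs1 by 1.31 (SE 0.06, adjusted p = 3.61e-25, edgeR). Mvd was higher in KO_4258 than in KO_1925 by 0.34 (SE 0.07, adjusted p = 6.56e-05, edgeR). Within a library, the ratio of Mvd to Idi1 counts needs no scaling between libraries. Its log2 value was 1.82 and 2.07 in the 2 libraries of KO_4258. In the other 9 libraries, controls included, it lay between -1.13 and -0.55. KO_4258 therefore had more reads of Mvd than of Idi1, and every other library fewer. Counts also depend on gene length, so the sign of the ratio does not tell which transcript was more abundant. In FPKM, Mvd was at 27.5 against 4.15 for Idi1 in KO_4258. It was slightly above Idi1 in WT_5257 (43.0 against 39.2), WT_8905 (32.5 against 27.8), KO_1925 (23.0 against 22.3) and KO_2768 (11.2 against 11.0). In KO_1922 it was below (11.5 against 13.4). The counts behind the ratio were 1165 and 997 for Mvd and 329 and 237 for Idi1 in KO_4258. This is the line in which Csf1r stood at 312 CPM, and the part of other cell types in the ratio was not tested.

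**Figure D3:**
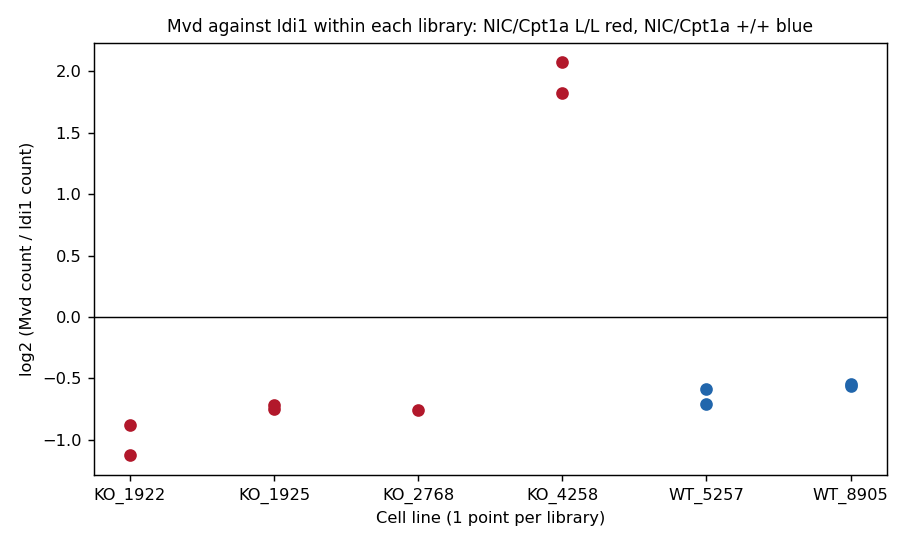
The log2 ratio of the Mvd count to the Idi1 count (vertical axis) in each of 11 libraries by cell line, NIC/Cpt1a L/L in red and NIC/Cpt1a +/+ in blue. The libraries of KO_4258 lie at 1.82 and 2.07 and all others below 0. The counts are not divided by gene length, so 0 does not mark equal levels.

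KO_1922 and KO_1925 differed in 1 direction. All 6 genes were lower in KO_1922 by edgeR's test, against 21.4% of tested genes called lower there and 44.1% called in either direction. The log2 difference was -1.02 for Mvd (SE 0.08, adjusted p = 8.40e-15, edgeR), -0.77 for Pmvk (SE 0.09, adjusted p = 6.02e-10), -0.75 for Idi1 (SE 0.07, adjusted p = 2.11e-13), -0.55 for Fdps (SE 0.05, adjusted p = 1.00e-12), -0.46 for Fdft1 (SE 0.06, adjusted p = 6.56e-09) and -0.36 for Hmgcs1 (SE 0.06, adjusted p = 6.11e-07). The median size of these differences was 0.65, and that of all tested genes was 0.26. The 6 genes are steps of 1 pathway and are not replicates of each other. Of the remaining 8 sterol synthesis genes in the table, 7 were also lower in KO_1922, and Sc5d was higher by 0.26 (SE 0.06, adjusted p = 0.000507, edgeR). Among them Dhcr7, 7-dehydrocholesterol reductase, had the largest difference, -0.87 (SE 0.05, adjusted p = 1.17e-19, edgeR).

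**Figure D4:**
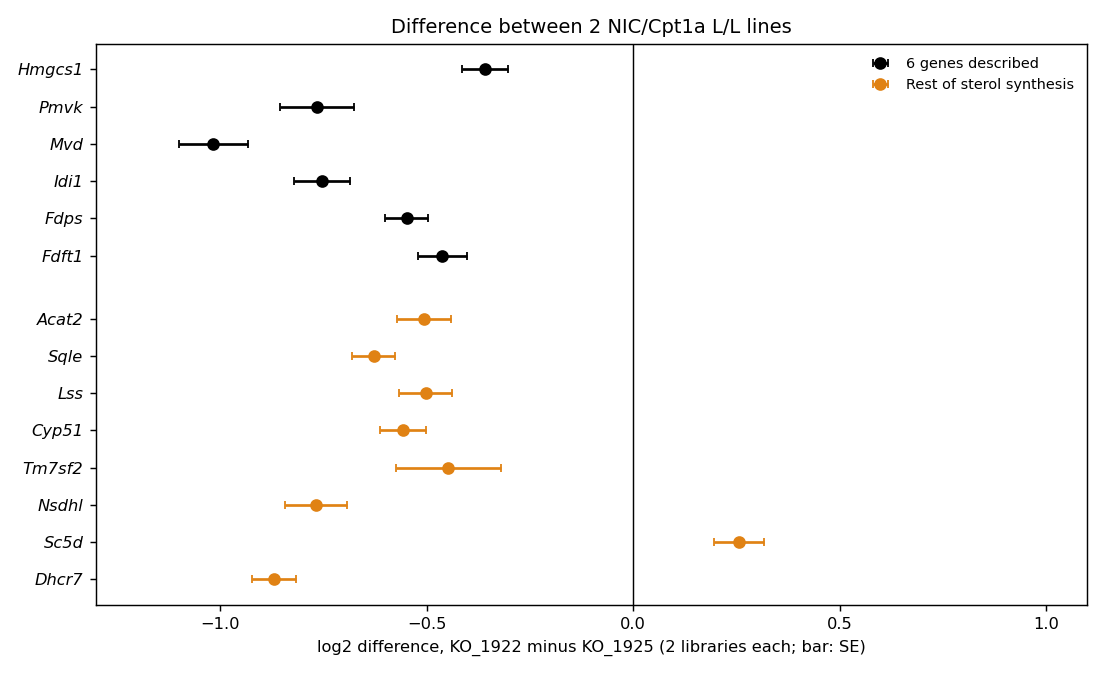
The log2 difference between KO_1922 and KO_1925 (horizontal axis, KO_1922 minus KO_1925, bars are SE, 2 libraries each) for the 6 genes (black) and 8 further sterol synthesis genes (orange). All points except Sc5d lie left of 0.

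KO_1925 also lay above KO_2768. Of the 6 genes 4 passed the test between these lines (63.8% of all genes), and Mvd, Idi1, Fdps and Fdft1 were higher in KO_1925 by 0.65 to 1.02 on the log2 scale, with 31.6% of all genes called higher there. Hmgcs1 and Pmvk, at 0.06 each (SE 0.07 and 0.10), did not pass (adjusted p = 0.417 and 0.620, edgeR). In the other 4 pairs of NIC/Cpt1a L/L lines, the genes that passed went both ways. Between KO_1922 and KO_2768, 4 of the 6 genes passed the test (60.1% of all genes), with Hmgcs1 and Pmvk lower and Idi1 and Fdft1 higher in KO_1922. Against KO_4258, 5 of 6 genes passed in each of KO_1922 (71.1% of all genes), KO_1925 (72.0%) and KO_2768 (71.6%). In these comparisons Hmgcs1 and Idi1 were lower in KO_4258 and Mvd was higher, against each of the 3 other lines. The share of the 6 genes called in either direction in these pairs was near the share of all genes. KO_2768 has 1 library, which the fit assumes to vary like the others.

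The control lines also differed from each other, in 5 of the 6 genes against 61.1% of all genes. Fdft1 differed most, being lower in WT_5257 by 0.84 on the log2 scale (SE 0.06, adjusted p = 8.87e-18, edgeR). Idi1, Fdps and Mvd were higher in WT_5257, by 0.44 (SE 0.06, adjusted p = 2.32e-08), 0.36 (SE 0.05, adjusted p = 8.27e-09) and 0.35 (SE 0.07, adjusted p = 3.66e-05). Hmgcs1 was lower in WT_5257 by 0.13 (SE 0.05, adjusted p = 0.0258), a call that was lost with other scalings of the libraries. Pmvk did not pass, at -0.09 (SE 0.07, adjusted p = 0.271). None of the 6 reached 2-fold between the control lines, as 31.2% of all genes did. For Fdft1 the ratio between the controls (1.73-fold) was as wide as that among the 4 NIC/Cpt1a L/L lines (1.69-fold).

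The steps before and after the 6 genes were read from a list of 18 further genes of mevalonate and sterol synthesis, of which 8 were in the table. All 8 had negative fold changes (41.4% of all tested genes), with a median of -1.37, and 7 lay below both controls in every NIC/Cpt1a L/L line (38.2% of all genes). The genotype contrast chose every gene of the table, so the counts for this and the following lists are descriptions. Acat2, which makes acetoacetyl-CoA for Hmgcs1, was at 54.8 ± 20.2 CPM (SD, n = 4) against 137 ± 38.7 CPM (SD, n = 2). Sqle, squalene epoxidase, had a log2 fold change of -1.04 (SE 0.33), and Lss, which closes the sterol ring, one of -1.88 (SE 0.25). Cyp51, Nsdhl and Sc5d, which act on the ring and its methyl groups, were at -1.60 (SE 0.29), -1.41 (SE 0.43) and -0.56 (SE 0.20). Tm7sf2, a sterol reductase, had the lowest value of the 8, -2.37 (SE 0.30), at 7.91 ± 2.05 CPM against 40.9 ± 3.41 CPM. Dhcr7 was at -1.09 (SE 0.49), and its level in KO_1925, 192 CPM, lay above that of WT_5257, 183 CPM. The remaining genes of the list, Mvk, Ggps1 and Idi2 among them, were not analysed here.

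**Figure D5:**
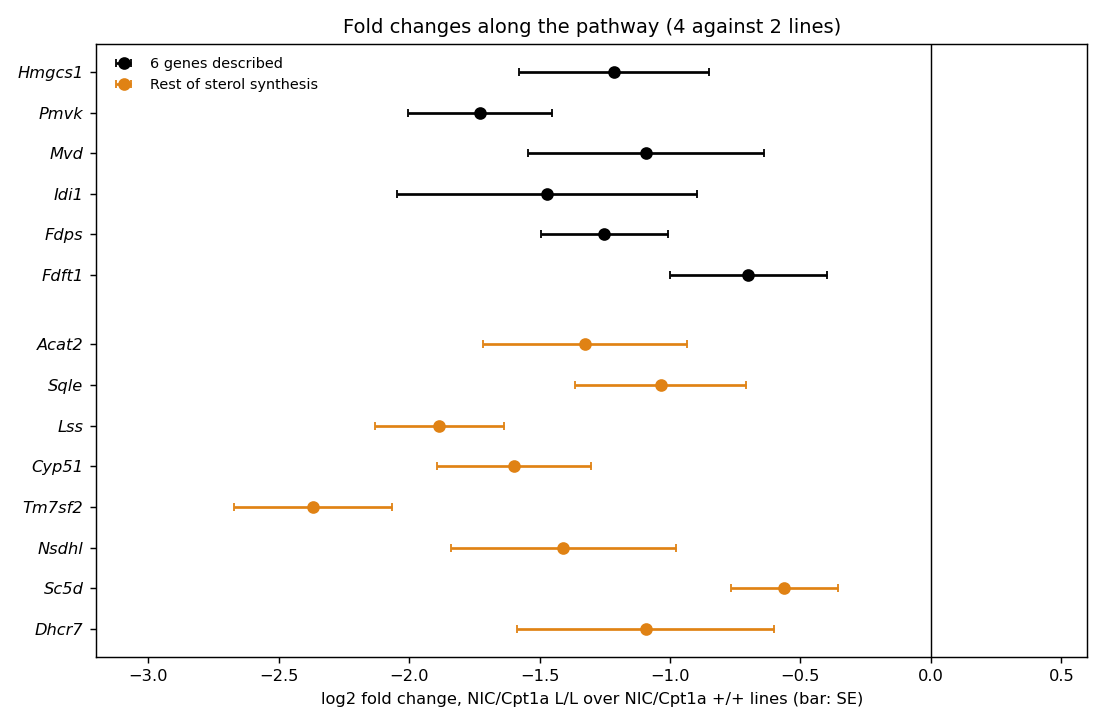
Log2 fold change between 4 NIC/Cpt1a L/L and 2 NIC/Cpt1a +/+ lines (horizontal axis, bars are SE) for the 6 genes (black) and 8 further sterol synthesis genes (orange). All values lie left of 0, from -2.37 for Tm7sf2 to -0.56 for Sc5d; the table holds only genes selected on this difference.

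Genes that sense, take up or store sterols went both ways. Of 24 such genes 10 were in the table, 7 with negative (41.4% of all tested genes) and 3 with positive fold changes and a median of -0.70. Srebf1, which encodes SREBP-1, was at -1.56 (SE 0.31), and Insig1, which retains the SREBP complex in the endoplasmic reticulum, at -1.50 (SE 0.69). Insig1 was at 215 CPM in KO_4258, beside 217 CPM in WT_5257, and at 43.4 to 60.9 CPM in KO_1922, KO_2768 and KO_1925. Soat1, which esterifies cholesterol for storage, was higher in every NIC/Cpt1a L/L line than in both controls, 29.3 ± 11.3 CPM (SD, n = 4) against 4.65 ± 3.14 CPM (SD, n = 2). Abcg1, a sterol exporter, was at 6.76 to 28.3 CPM in 3 NIC/Cpt1a L/L lines and at 0.0230 CPM in KO_4258, against 0.158 and 1.56 CPM in controls.

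A list of 19 genes that use isoprenoid diphosphates outside the sterol branch, or act on the products made from them, had 9 in the table. Of these, 6 were lower on average (41.4% of all tested genes) and 3 higher, with a median of -0.56. Fntb, the farnesyltransferase beta subunit, was at -1.10 (SE 0.20) and Cox10, which farnesylates heme, at -1.02 (SE 0.32). Dolk, dolichol kinase, was at -0.90 (SE 0.26), and Trit1, which adds an isopentenyl group to tRNA, at 0.95 (SE 0.43). Between KO_1922 and KO_1925, 2 of these 9 genes were called, both higher in KO_1922 (edgeR; 44.1% of all genes were called).

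Fatty acid synthesis is a second user of acetyl-CoA. A list of 20 genes of this process and of related lipid metabolism had 11 in the table. All 11 had negative fold changes (41.4% of all tested genes), with a median of -1.18, and 10 lay below both controls in every NIC/Cpt1a L/L line (38.2% of all genes), in a table selected on this contrast. Scd1, stearoyl-CoA desaturase, had the lowest value, -4.34 (SE 0.30), from 598 ± 82.4 CPM (SD, n = 4) against 12119 ± 3154 CPM (SD, n = 2). Acss2, Lpin1 and Elovl6 were at -1.97 (SE 0.54), -1.51 (SE 0.42) and -1.36 (SE 0.33). Between KO_1922 and KO_1925, 7 of the 11 were lower and 2 higher in KO_1922 by edgeR's test, which called 21.4% of all genes lower there and 44.1% in either direction.

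Among all tested genes, those most like the mean scaled profile of the 6 over the 6 lines were Acaca (Pearson r = 0.994), Sowaha (0.988), Ammecr1 (0.988), Txnl4a (0.983) and Cyp51 (0.982). The 6 genes themselves had r between 0.815 and 0.965 with that mean, in which each takes part. The points share a genotype difference that selected every gene, and 232 of 4268 genes reached r of at least 0.9. Acaca, acetyl-CoA carboxylase, commits acetyl-CoA to fatty acid synthesis. Its levels in KO_1922, KO_1925, KO_2768 and KO_4258 were 184, 274, 180 and 170 CPM, against 431 and 462 CPM in controls.

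Several genes share their locus with others in GENCODE M21, and the sources used here do not say whether reads were counted by strand. Mvd lies inside Gm20388 on the opposite strand, Hmgcs1 and Idi1 overlap the opposite-strand genes Gm48342 and Gm48574 over 6190 and 323 bases, and Fdft1 meets the 3′ end of Ctsb over 771 bases. Fdps overlaps the readthrough gene Gm43738 on its own strand over 7508 bases. Reads of these pairs cannot be told apart, so the levels are uncertain to that extent.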

How the data were processed

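RNA-Seq was performed on 11 libraries of 6 cell lines. Per the labels and methods, the authors trimmed and mapped reads to mm10 with STAR and deposited whole-number read counts per gene from HTSeq. They also deposited a normalized signal, which is the count divided by 1 size factor per library, FPKM values, which divide it by gene length and library total, and gene lengths in bases. The log2 fold changes and p-values of the authors' own comparison stand in the same table, which holds only genes past its threshold, and were not used.

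Library totals were recovered from counts, lengths and FPKM. For the genotype difference, counts of duplicates were summed by line and fitted in edgeR 4.0.16 (R 4.3.3). The fit used filterByExpr and TMM (factors 0.969 to 1.05), and the fold and SE are given without a test. TMM takes most genes as unchanged, but here its factors came only from genes selected on genotype, for lines and libraries alike. With library totals without TMM, the median log2 fold change of the 6 genes was -1.17. Library CPM use the factor of their line. Lines were compared in edgeR's quasi-likelihood fit over libraries, 1 coefficient per line, with Benjamini-Hochberg adjustment over 4377 genes and a threshold of 0.05. These p-values measure the spread between duplicates, which may be technical, and not between tumors. A fold of 2 was used for counts of wide ranges, and the mean profile used log2 CPM with a prior count of 2.

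Members and lists were chosen with earlier results of these data known. The genes named are the 6, every further sterol synthesis gene in the table, up to 4 genes of each other list by size of fold change, the 5 genes most like the mean profile, and cell type markers. The lines compared in detail, Insig1's values and Dhcr7's overlap were chosen after values were seen. Alternatives were DESeq2 1.42.0, other scalings, filters, a replicate block and lines or libraries left out. The functions were tested on simulated data. Figures were drawn with matplotlib 3.10.9.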

Additional observations from a re-analysis of the deposited data

How the results depend on the processing

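Across the alternatives run, all 6 genotype fold changes stayed negative, and their median lay between -1.37 and -1.13. The fold change of Fdft1 moved to -1.14 without WT_5257 and to -0.24 without WT_8905. Leaving out each of the 6 lines in turn gave 5 or 6 genes below both controls in every NIC/Cpt1a L/L line, as did other scalings and 1 library per line. Between 5 and 6 genes differed among NIC/Cpt1a L/L lines when each line of that genotype was left out, the 5 without KO_1922, and 6 under the 5 other settings. The count that differed between control lines was 4 or 5 under 5 settings, with no line left out. All 6 genes stayed lower in KO_1922 than in KO_1925 under the 5 settings tried, which were chosen after seeing the data, as was leaving out KO_2768 with KO_4258.

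Between the control lines, the adjusted p of Hmgcs1 (0.0258 with TMM) was 0.402 with median-of-ratios size factors and 0.515 with DESeq2, both with the sign reversed, and 0.217 with library totals without TMM. That of Pmvk was 0.226 and 0.401 with the sign reversed under median-of-ratios factors and DESeq2. Median-of-ratios factors moved the median fold change of all genes by -0.12 and the deposited normalized values by 0.10.

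Duplicates of the same number did not deviate together (0 of 10 correlations between lines over 0.1), so the numbers do not pair the libraries. With the number as a replicate block, 6 genes differed among NIC/Cpt1a L/L lines and 5 between control lines, and the median fold over single libraries was -1.29.

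Depth did not limit the 6 genes, whose lowest count was 237. The limits are 2 control lines, a table selected on genotype, 1 library of KO_2768, and markers of other cell types that differ between lines.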
